A study of Macaca mulatta with 449 samples.

Results

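The anterior cingular gyrus (ACG) and the posterior cingular gyrus (PCG), as the labels name them, are neighbouring stretches of limbic cortex on the medial wall of the hemisphere. Their comparison used the 16 Ribo-zero RNA-seq samples with region number 33 (ACG) or 32 (PCG) out of the 449 samples of the series (RNA-seq and ATAC-seq), 8 per sub-region, chosen by the label alone. Each of the 8 rhesus macaques gave 1 sample of each. The animals were healthy, 4 males and 4 females. Of each sex, 2 were young and 2 were mid-aged: Rhesus 7 (4 years), Rhesus 8 (3.8 years), Rhesus 4 (3.2 years) and Rhesus 10 (5 years) were young, and Rhesus 2, Rhesus 3 and Rhesus 6 (10 years each) and Rhesus 11 (9.8 years) were mid-aged. The samples were dissected blocks of tissue with all their cell types, and 1 block stands for a sub-region in an animal. A lower level of a gene in such bulk tissue can mean fewer cells of a type or less RNA per cell, which cannot be told apart here.

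As background, the anterior cingulate cortex lacks a well-developed granular layer 4 and has large layer 5 projection neurons, and it is tied to the amygdala, to autonomic control and to affect. The posterior cingulate cortex has a granular layer 4 and is linked with parietal and medial temporal areas. Across the primate cortex, sensory and association areas are in general more heavily myelinated and richer in parvalbumin interneurons than limbic areas, and limbic areas are rich in several receptors of neuromodulators.

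The 16 samples held between 8312733 and 13483962 counts each, with a median of 11121425. Levels are given as CPM, counts scaled to library size on the TMM scale of edgeR over the cortical samples, and a log2FC is the fitted difference ACG minus PCG on the log2 scale with its SE. The labelled tissue carried cortical markers: *SLC17A7*, the vesicular glutamate transporter of cortical projection neurons, had at least 941 CPM in each ACG sample and 781 CPM in each PCG sample. Both samples of Rhesus 4 stood apart from the other cortical samples of that animal: by the median Euclidean distance of variance-stabilized values to the other 30, its PCG sample ranked 1 of 31 from the farthest and its ACG sample ranked 2. In the other animals the PCG sample ranked 12 to 28 and the ACG sample 3 to 13.

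With the animal as a block, edgeR's quasi-likelihood test over 14513 genes called 917 genes at an FDR under 0.05 (6.32% of the genes tested). Of these, 514 (3.54%) were higher and 403 (2.78%) lower in ACG. Most differences were small: the median absolute log2FC of the called genes was 0.48, and 104 genes (0.717%) also passed an absolute log2FC of 1, 70 of them higher and 34 lower in ACG. The median log2FC over all genes tested was 0.00. In 601 of the 917 called genes the sign was the same in all 8 animals, which was the case for 907 genes (6.25%) among all genes tested. For 23 genes (0.158%) the levels of the 8 ACG samples and the 8 PCG samples did not overlap, 14 of them higher and 9 lower in ACG. Without the animal as a replicate block, 37 genes were called higher and 22 lower. The count also rested on single animals. It fell to 476 genes without Rhesus 6, 489 without Rhesus 7, 512 without Rhesus 8 and 649 without Rhesus 11. It rose to 982 without Rhesus 3 and 1079 without Rhesus 10. The genes lower in ACG fell to 194, 195, 205 and 254 without Rhesus 6, 7, 8 and 11. Each of these fits also had fewer samples. Without Rhesus 4, 461 genes were higher and 342 lower.

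The largest difference of a named gene was that of *MET* (ENSMMUG00000006779), a receptor tyrosine kinase of growing axons and synapses whose ligand is hepatocyte growth factor. Its ACG level was 3.24 CPM in the lowest sample, 5.43 at the median and 10.6 in the highest. In PCG the lowest sample had 17.8 CPM, the median was 54.4 and the highest 88.9. The groups did not overlap, and *MET* was 8.84-fold lower in ACG (log2FC -3.14, SE 0.22, edgeR FDR 1.73e-05). *HGF*, the gene of that ligand, went the other way. Its ACG samples ran from 4.86 to 24.1 CPM with a median of 17, and its PCG samples from 2.23 to 8.30 CPM with a median of 5.26. *HGF* was higher in ACG in 8 of 8 animals, by a log2FC of 1.64 (SE 0.18, edgeR FDR 0.000122), although the ranges of the groups overlapped.

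*CD53* (ENSMMUG00000000811), a tetraspanin best known from white blood cells and microglia, had 8.03 to 37.4 CPM in ACG (median 19.2) and 76.1 to 129.8 CPM in PCG (median 91.6). Every PCG sample was above every ACG sample (log2FC -2.29, SE 0.18, edgeR FDR 2.44e-05). *LTB*, which encodes the cytokine lymphotoxin beta, had a median of 2.20 CPM in ACG and 8.27 CPM in PCG, with a log2FC of -1.73 (SE 0.17). Of 5 members of the microglia list tested, *CSF1R* (log2FC 0.35, edgeR FDR 0.0490) and *P2RY12* (0.42, FDR 0.0157) were higher in ACG (background 3.54%) and none was lower. *PTPRC*, the pan-leukocyte gene, had a log2FC of -0.03. *P2RY12* was not called without Rhesus 6 or Rhesus 7, nor was *CSF1R* without any of Rhesus 3, 4, 6, 7, 8 and 11.

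*LPAR3*, a lysophosphatidic acid receptor, was lower in ACG in all 8 animals, with a median of 0.314 CPM in ACG and 1.84 CPM in PCG. *STC2*, a secreted stanniocalcin, had a median of 1.60 CPM in ACG and 5.12 CPM in PCG. *DACT2*, a modulator of Wnt signalling, had 2.03 to 10.3 CPM in ACG and 10.1 to 23.6 CPM in PCG, so that the ranges met only at their ends (log2FC -1.47, SE 0.15, edgeR FDR 8.56e-05). *FOXP2*, a transcription factor of layer 6 corticothalamic neurons in cortex, had 4.57 to 19.3 CPM in ACG (median 5.89) and 15.3 to 36.5 CPM in PCG (median 20.3). It was 2.77-fold lower in ACG (log2FC -1.47, SE 0.24, edgeR FDR 0.00219), but in 1 animal both samples were nearly level. *SSTR5*, a somatostatin receptor, had medians of 0.373 CPM in ACG and 1.46 CPM in PCG. *NEK2*, a mitotic kinase (log2FC -1.57), the phosphatidate phosphatase gene *LPIN3* (-1.56) and *GASK1B* (-1.36) were also lower in all 8 animals.

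Among genes higher in ACG, *CA12* (ENSMMUG00000021338), a membrane-bound carbonic anhydrase, combined a moderate level with a large difference. ACG samples held 11.6 to 46.3 CPM (median 18.7) and PCG samples 3.12 to 16.2 CPM (median 5.65). All 8 animals had more in ACG (log2FC 1.92, SE 0.15, edgeR FDR 2.44e-05), and the overlap of the groups came from the PCG sample of Rhesus 10 at 16.2 CPM. *CD36* (ENSMMUG00000042946), a scavenger receptor and fatty acid transporter, had 3.07 to 13.4 CPM in ACG and 0.184 to 3.45 CPM in PCG (log2FC 2.89, SE 0.24, edgeR FDR 3.28e-05). The aquaglyceroporin *AQP3* had 2.16 to 8.43 CPM in ACG and 0.347 to 1.65 CPM in PCG, without overlap (log2FC 1.96, SE 0.22). *SERPINB5*, a serpin, likewise did not overlap, with 1.47 to 7.07 CPM in ACG and at most 1.04 CPM in PCG. *FIBCD1*, a chitin-binding receptor that is also a marker of hippocampal CA1 neurons, had a median of 4.14 CPM in ACG and 0.901 CPM in PCG (log2FC 1.9, SE 0.25). Further named genes had medians under 10 CPM in both groups: *FSHB* (the beta subunit of follicle-stimulating hormone, log2FC 2.32), *MS4A8* (2.04), *GDF10* (a BMP family growth factor, 1.83), *DNAH3* (an axonemal dynein, 1.82) and *KRT19* (a keratin, 1.62). *KRT19* varied most, with 1.79 to 19.4 CPM in ACG and 0.139 to 14 CPM in PCG, and was not called without Rhesus 6. In addition, 3 abundant genes, picked after their values were seen because their groups did not overlap, were higher in ACG: *IGFBP5* (an IGF binding protein, log2FC 1.16, edgeR FDR 0.000122), *TNC* (the matrix protein tenascin C, log2FC 1.00) and *GPD1* (glycerol-3-phosphate dehydrogenase, log2FC 1.01).

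**Figure D1:**
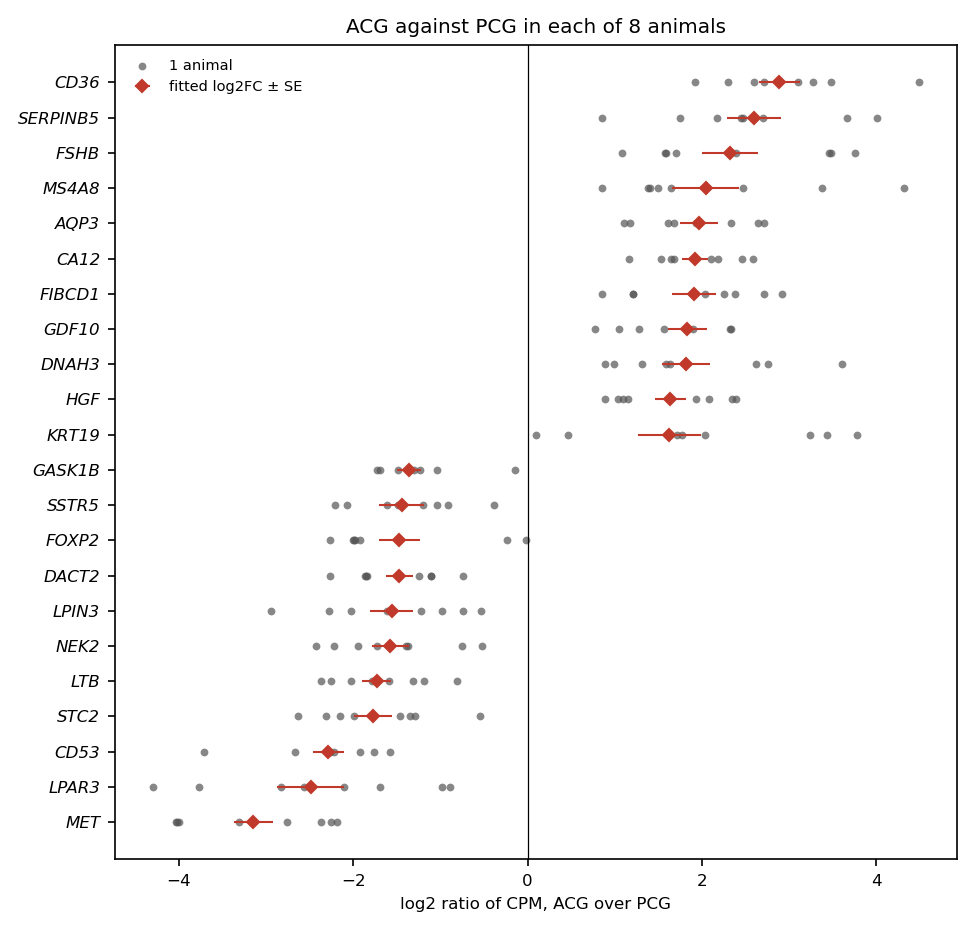
Log2 ratio of CPM between the ACG and the PCG sample of each animal (grey points, 1 per animal, pseudocount 0.1) and the fitted log2FC with its SE (red diamonds) for 22 of the 24 genes with the largest changes. *CD36* (2.89) is the farthest to the right and *MET* (-3.14) the farthest to the left. The 8 points of each gene lie on 1 side of 0, as the rule that chose the genes required.

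The position of both sub-regions in the cortex was read from the other 29 cortical sub-regions of the same animals. Against their mean, edgeR called 6155 of 15981 genes (38.5%) in ACG, 3392 higher (21.2%) and 2763 lower (17.3%), and 3643 (22.8%) in PCG, 2157 higher (13.5%) and 1486 lower (9.3%). Without Rhesus 4 the counts were 5421 for ACG and 1638 for PCG. These contrasts share the 29 sub-regions and are not independent of each other. By the mean over 8 animals, the ACG level of the 12 named genes higher in ACG ranked 1 to 4 of 31 sub-regions from the highest, and that of the 12 named lower genes ranked 28 to 31. The PCG level of these genes ranked from 1 to 27. The genes were chosen by their difference between ACG and PCG in these samples, which in part sets the ranks. Without Rhesus 4 the ACG ranks were 1 to 4 and 27 to 31. *CA12* was highest in ACG, with a log2FC of 2.23 against the 29 others, while PCG ranked 10 with a log2FC of 0.29 (edgeR FDR 0.195). For *MET* the ACG level ranked 29 and lay below the mean of the 29 others by a log2FC of -2.82, while PCG ranked 17 (0.33, edgeR FDR 0.0705). The low level was shared by several frontal sub-regions. Mean *MET* was 6.00 CPM in ACG, 4.92 CPM in the superior precentral, 6.12 CPM in the inferior precentral and 8.42 CPM in the middle frontal gyrus. The median over the 29 others was 71.9 CPM. Without Rhesus 4 the PCG level of *MET* was called above the others (0.43, edgeR FDR 0.0294). For *CD53* the PCG level ranked 1 of 31, above the mean of the 29 others by a log2FC of 1.25 (edgeR FDR 4.52e-21). The PCG mean of 96.1 CPM was nearly matched by the posterior superior parietal gyrus (96.0 CPM), the superior parietal lobule (92.0 CPM) and the middle frontal gyrus (91.1 CPM). The ACG level of *CD53* ranked 28 with a log2FC of -1.0. Several of the genes higher in ACG peaked in another sub-region: *CD36* was highest in the temporal polar gyrus (TPG), with a mean of 19.7 CPM, and so were *FSHB* (21.2 CPM) and *DNAH3* (5.13 CPM). *HGF* was highest in the ventromedial prefrontal cortex (vmPFC), with 17.7 CPM, and ACG ranked 3 of 31, but without Rhesus 4 the ACG level of *HGF* ranked 1.

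**Figure D2:**
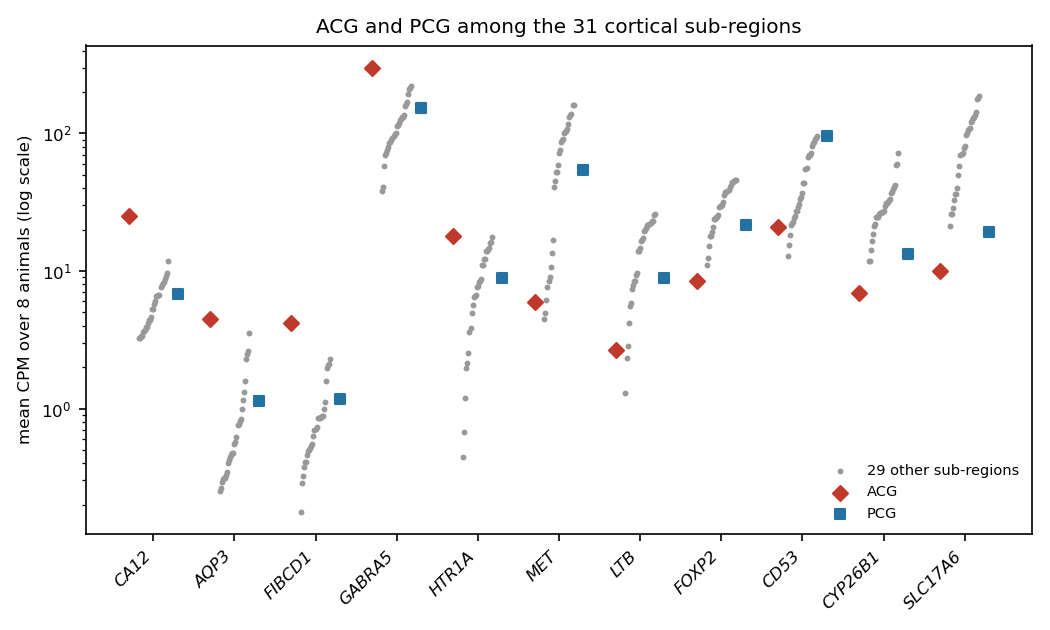
Mean CPM over 8 animals (log scale) of 11 genes in ACG (red diamond), PCG (blue square) and the 29 other cortical sub-regions (grey points, sorted). ACG is the highest of 31 for *CA12*, *AQP3*, *FIBCD1*, *GABRA5* and *HTR1A* (*HTR1A* the second highest without Rhesus 4) and the lowest for *FOXP2*, *CYP26B1* and *SLC17A6*. PCG is the highest for *CD53*, with 96.1 CPM beside 96.0 CPM in the posterior superior parietal gyrus.

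Oligodendrocytes wrap axons in myelin, and their genes were lower in ACG as a group. All 8 of the members tested, out of 12 on the oligodendrocyte and myelin list, were called lower (background 2.78%), with a median log2FC of -0.86. *MBP*, the myelin basic protein gene, had 313 to 944 CPM in ACG (median 449) and 814 to 1936 CPM in PCG (median 942). It was lower in ACG in 8 of 8 animals (log2FC -1.09, SE 0.15, edgeR FDR 0.000773). *MOG*, a protein of the outer myelin surface, had 13.1 to 26.5 CPM in ACG and 27.2 to 59.9 CPM in PCG, with no overlap (log2FC -1.06, SE 0.11). *ERMN*, a cytoskeletal protein of myelinating cells, had a log2FC of -1.04. *MAL*, *UGT8*, *MOBP* and *CNP* were also lower, down to a log2FC of -0.40 for *CNP*. The summed level of the list was 610 to 1418 CPM in ACG and 1555 to 3613 CPM in PCG, and it was lower in ACG in 8 of 8 animals. The highest value was the PCG sample of Rhesus 7. Without that animal 6 of the 8 members were called. ACG ranked 28 or 29 of 31 sub-regions for *MBP*, *MOG*, *ERMN* and *CNP*, and PCG ranked 22 or 23. Of the markers of the precursors of these cells, none of 6 members tested was called, with a median log2FC of 0.15, and *VCAN* had the smallest p (log2FC 0.30, edgeR FDR 0.0794).

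**Figure D3:**
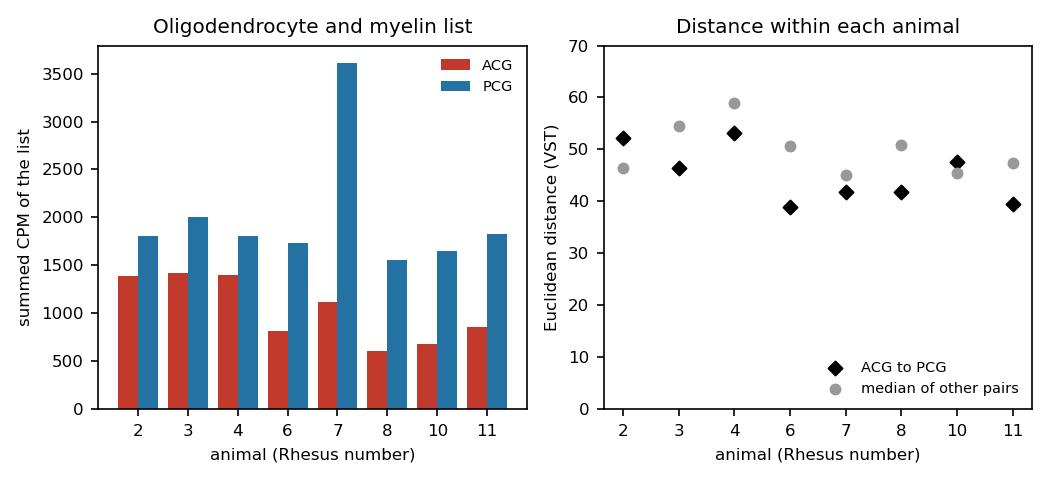
Left, summed CPM of the oligodendrocyte and myelin list in ACG (red bars) and PCG (blue bars) of each animal. Right, Euclidean distance of variance-stabilized values between ACG and PCG (black diamonds) and the median of the 464 other cortical pairs (grey points) of the same animal. The PCG bar is the taller in each animal, most in Rhesus 7, and the diamond lies below the grey point in 6 of 8 animals.

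Fewer members were called on the other cell type lists, where 3.54% of all genes tested were called higher and 2.78% lower. Of 8 astrocyte members, *GFAP*, the filament protein of astrocytes, was higher in ACG, with medians of 588 CPM in ACG and 396 CPM in PCG (log2FC 0.66, edgeR FDR 0.0357), and the others were not called. The call of *GFAP* ended without any of Rhesus 4, 6, 7, 8 and 11, and the PCG sample of Rhesus 4 had the lowest astrocyte sum, 1729 CPM against 3093 to 3915 CPM in the other PCG samples. Of 8 pan-neuronal members, *NRGN*, a calmodulin-binding postsynaptic protein (log2FC -0.52, edgeR FDR 0.000122), and *RBFOX3*, the gene of the neuronal antigen NeuN (log2FC -0.38), were lower and the median was -0.11. Among 7 members for excitatory neurons, *SLC17A6*, the vesicular glutamate transporter VGLUT2, was lower (log2FC -0.93), and the median was 0.01. *SLC17A6* is also a thalamic marker, and its level ranked 31 of 31 in ACG and 30 in PCG. On the thalamus list (6 tested), *NTNG1* was also lower (-0.34) and *PRKCD* higher (0.81). On the hippocampal formation list, 3 of 6 were higher: *FIBCD1* (1.9), *CALB1* (0.68) and *NEUROD1* (0.66). No member was called on the lists for endothelial cells and pericytes (8 tested; smallest p for *VWF*, log2FC 0.30), meninges and fibroblasts (5; *LUM*, 0.34), choroid plexus (3; *KL*, 0.39), ependymal cells (4; *TEKT1*, 0.36), blood (1; *HBA*, 0.03) and striatal medium spiny neurons (8; *PPP1R1B*, -0.16).

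Fast-spiking interneurons express parvalbumin and fast potassium and sodium channels, and the neurofilament genes mark thick axons. Of 15 tested genes of these types, 9 were lower in ACG (background 2.78%) and none higher, with a median log2FC of -0.36. *PVALB*, the parvalbumin gene, had 3.65 to 22.8 CPM in ACG (median 9.90) and 9.39 to 46.7 CPM in PCG (median 20.6). It was lower in ACG in 8 of 8 animals (log2FC -1.20, SE 0.16, edgeR FDR 0.000541). *SYT2*, a fast synaptotagmin (log2FC -0.82), and *KCNS1*, a modulatory potassium channel subunit (log2FC -0.66), were lower in 6 and 7 of 8 animals. *NEFH*, *NEFM*, *KCNC1*, *CPLX1* and *SCN1A* were also lower. The list fell to 5 called members without Rhesus 6, 7, 8 or 11, and to 6 without Rhesus 3.

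The oligodendrocyte list was lower in ACG in the same samples. With its log2 summed level as a covariate, an addition made after the data were seen, 0 genes were called at an FDR under 0.05 (smallest FDR 0.234) and 1365 had an unadjusted p under 0.05. The covariate followed the sub-region closely, and the SE of the 917 genes grew by a median factor of 2.48, while 862 of them kept their sign. *MET* then had a log2FC of -2.85 (SE 0.57), *CD53* of -2.01, *CA12* of 1.88 and *CD36* of 3.74. *FIBCD1* moved from 1.9 to 3.42, *FSHB* from 2.32 to 1.43, *GDF10* from 1.83 to 0.95 and *MS4A8* from 2.04 to 0.32. Of the 24 named genes, 24 kept their sign and 18 had an unadjusted p under 0.05. The fast-spiking and neurofilament list had a median log2FC of 0.02, with *PVALB* at -0.65. *FOXP2* moved to -0.48 and *SSTR5* to -0.44. *MBP* moved to 0.05, which says nothing further, since its own counts are part of the covariate.

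Among interneuron markers, 18 were tested and the median log2FC was 0.17. Over all genes tested, 3.54% were called higher and 2.78% lower. *PVALB*, on both lists, was lower. *SST*, the gene of somatostatin, had medians of 171 CPM in ACG and 122 CPM in PCG and was higher in ACG in 7 of 8 animals (log2FC 0.45, SE 0.09, edgeR FDR 0.00897). ACG held the highest mean *SST* level of the 31 sub-regions. *NOS1*, nitric oxide synthase of a sparse class of interneurons, was also higher in ACG (log2FC 0.91, SE 0.21, edgeR FDR 0.0184).

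Markers of cortical layers were called in small numbers, where 3.54% of all genes tested were called higher and 2.78% lower. Of 8 tested layer 4 members, *KCNH8*, a potassium channel, was lower in ACG, with medians of 1.61 CPM in ACG and 2.79 CPM in PCG (log2FC -0.93, edgeR FDR 0.0247), and *COBL* was slightly higher (0.18). *RORB*, the transcription factor that marks layer 4, had a log2FC of -0.56 and was not called, and the median of the list was -0.14. Of 12 layer 5 members, *BCL11B* (CTIP2), the regulator of subcerebral projection neurons, had medians of 6.07 CPM in ACG and 2.79 CPM in PCG and was the highest of the 31 sub-regions in ACG (log2FC 1.15, SE 0.15, edgeR FDR 0.000314). *PDE1A*, a calcium-dependent phosphodiesterase, was also higher (log2FC 0.62). The other 10 layer 5 members were not called. The median of the list was 0.14, and by animal it was positive in 4 and negative in 4. On the list of genes of von Economo neurons and other extratelencephalic layer 5 neurons, *ITGA4*, an integrin, had a log2FC of 1.15 (SE 0.14, edgeR FDR 0.000272) and *VAT1L* of 0.68 (SE 0.13, edgeR FDR 0.00617). These 2 of 8 tested members were called, none was lower, and the median was 0.40. Of 12 layer 2 and 3 members, *CALB1*, calbindin (0.68), and *GLRA3*, a glycine receptor subunit (0.63), were higher and *COL5A2* (-0.71) was lower, with a median of 0.17. Of 10 layer 6 and subplate members, *FOXP2* was the only one called, and the median was -0.16.

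Receptors of the fast transmitters were called in 1 direction. Of 23 glutamate receptor genes tested, 4 were higher in ACG (background 3.54%), none lower, with a median log2FC of 0.24, and the count ran from 3 to 8 with single animals left out, 8 being that without Rhesus 3. *GRIA1*, an AMPA receptor subunit, had 372 to 562 CPM in ACG (median 444) and 223 to 364 CPM in PCG (median 293). These ranges did not overlap, and the log2FC was 0.63 (SE 0.08, edgeR FDR 0.000272). *GRIN3A*, an NMDA receptor subunit, had medians of 138 CPM in ACG and 71.6 CPM in PCG (log2FC 0.76, SE 0.08, edgeR FDR 0.000122). *GRIN2B*, an NMDA receptor subunit (log2FC 0.71), and *GRIK4*, a kainate receptor subunit (log2FC 0.52), were the others. The mean levels of *GRIA1*, *GRIN3A* and *GRIK4* were the highest of the 31 sub-regions in ACG. Of 12 GABA-A receptor genes tested, 5 were higher in ACG (background 3.54%) and none lower, with a median of 0.17. *GABRA5*, the alpha5 subunit of extrasynaptic receptors, had 213 to 454 CPM in ACG (median 295) and 63.4 to 252 CPM in PCG (median 147). It was higher in 8 of 8 animals (log2FC 1.04, SE 0.12, edgeR FDR 0.000185). *GABRA3* (log2FC 0.85), *GABRB1* (0.50), *GABRA4* (0.40) and *GABRA2* (0.39) were smaller, and without Rhesus 6 or Rhesus 7 2 of the list were called, and without Rhesus 2, 4 or 8 there were 3. With the oligodendrocyte covariate the medians were 0.39 for the glutamate and 0.63 for the GABA-A receptor genes. Over all 39 lists the median changed sign in 15, among them the hippocampal formation (0.45 to -0.02), layer 2 and 3 (0.17 to -0.15) and immediate early gene lists (0.13 to -0.01). The 15 include the oligodendrocyte and myelin list (-0.86 to 0.09), whose members make up the covariate, so that its change was set in advance.

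**Figure D4:**
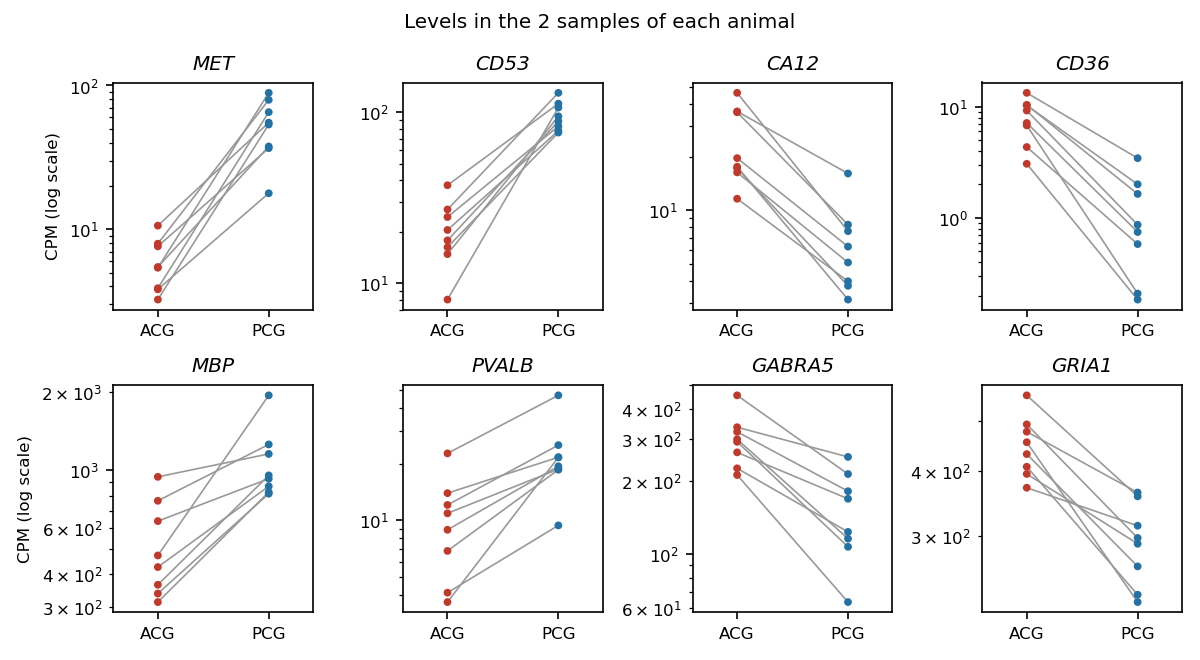
CPM (log scale) of 8 genes in the ACG (red) and PCG (blue) sample of each animal, joined by a line. *MET* and *CD53* rise from ACG to PCG without overlap of the groups, *MBP* and *PVALB* rise in 8 of 8 animals, and *CA12*, *CD36*, *GABRA5* and *GRIA1* fall in 8 of 8 animals.

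Receptors of neuromodulators and neuropeptides were called in small numbers, where 6.32% of all genes tested were called. The share called was 11.1% of serotonin receptors, 18.2% of acetylcholine receptors, 20% of opioid genes and 20% of neuropeptide receptors. *HTR1A*, the inhibitory serotonin 1A receptor, was the 1 of 9 serotonin receptors called. It had 9.08 to 27.2 CPM in ACG (median 18.3) and 1.84 to 12.8 CPM in PCG (median 8.92), was higher in 7 of 8 animals (log2FC 1.06, SE 0.19, edgeR FDR 0.00423) and was the highest of the 31 sub-regions in ACG, or the second highest without Rhesus 4. None of 8 dopamine and adrenergic receptors was called. *DRD5*, the dopamine D5 receptor, had the smallest p, with a log2FC of 0.87 and an edgeR FDR of 0.141. Of 11 acetylcholine receptors, the nicotinic subunit *CHRNB2* was higher (0.31) and *CHRNA2* lower (-0.74). Of 5 opioid genes, *PDYN*, prodynorphin, was higher (0.53). Of 20 neuropeptide receptors, *NTSR1*, the neurotensin receptor (1.34), and the somatostatin receptors *SSTR1* (0.79) and *SSTR4* (0.78) were higher and *SSTR5* (-1.45) was lower. The 3 somatostatin receptors were thus called in both directions, beside the higher *SST*.

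Of 22 cadherins and protocadherins tested, 7 were higher (background 3.54%) and none lower, with a median log2FC of 0.22. *PCDH17*, a protocadherin of corticobasal circuits, had 14.4 to 66.7 CPM in ACG (median 53.5) and 4.36 to 30.1 CPM in PCG (median 20.9). It was higher in 8 of 8 animals (log2FC 1.28, SE 0.11, edgeR FDR 3.65e-05) and highest of the 31 sub-regions in ACG. *CDH13* (0.85), *CDH4* (0.68) and *PCDH19* (0.62) were the next. Among 19 ephrins and Eph receptors, *EPHA6* (0.94), *EFNB3* (0.59) and *EPHA7* (0.55) were higher (background 3.54%) and *EFNA1* (-0.45) lower (background 2.78%). Among 29 semaphorins, plexins and neuropilins, *SEMA3D* (0.97) and *NRP2* (0.66) were higher, a share near that over all genes tested (6.32% called). Of 9 genes of the cerebellin system of synaptic organizers, 3 were higher (background 3.54%), the ligand *CBLN1* (0.82) and *NRXN2* (0.24) among them. Of 25 potassium channels, *KCNH8* (-0.93), *KCNH4* (-0.72), *KCNS1* (-0.66) and *KCNC1* (-0.48) were lower (background 2.78%) and *KCNG1* (0.49) was higher (background 3.54%). Without Rhesus 6 or Rhesus 7, 1 potassium channel was called lower and 0 higher.

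Genes of cortical patterning and hormone signals were called in small numbers, where 6.32% of all genes tested were called. The share called was 20.8% of the patterning factors, 15.8% of the retinoic acid pathway and 20% of the immediate early genes. It was 5.88% of the neurotrophin and growth factor genes and 14.3% of the hormone receptors. Of 24 patterning factors, *BHLHE22* (1.28, edgeR FDR 0.000314) and *BCL11B* (1.15) were higher and *ETV4* (-0.72), *TSHZ3* (-0.70) and *BCL11A* (-0.34) lower. The genes lower fell from 3 to 1 without Rhesus 4, Rhesus 6 or Rhesus 7, *ETV4* and *BCL11A* losing their calls. *TSHZ3*, a zinc finger factor of projection neurons, had 19.5 to 31.4 CPM in ACG and 33.3 to 46.9 CPM in PCG, without overlap. Of 19 retinoic acid pathway genes, *CYP26B1*, which degrades retinoic acid, had a median of 6.44 CPM in ACG and 12.4 CPM in PCG (log2FC -0.96, SE 0.14, edgeR FDR 0.000931). The receptor *RARB* was lower too (-0.69), and *RBP4*, the retinol carrier, was higher (0.53). *CYP26B1* and *RARB* ranked 31 of 31 in ACG. Of 17 neurotrophin and growth factor genes, *IGF1* was higher (0.60), and of 7 steroid and thyroid hormone receptors *THRA* was higher (0.28). Of 10 immediate early genes, *NR4A3* (0.65) and *NPAS4* (0.52) were higher. None of 7 heat shock and tissue stress genes was called, with *BAG3* the smallest p (log2FC -0.22, edgeR FDR 0.180).

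**Figure D5:**
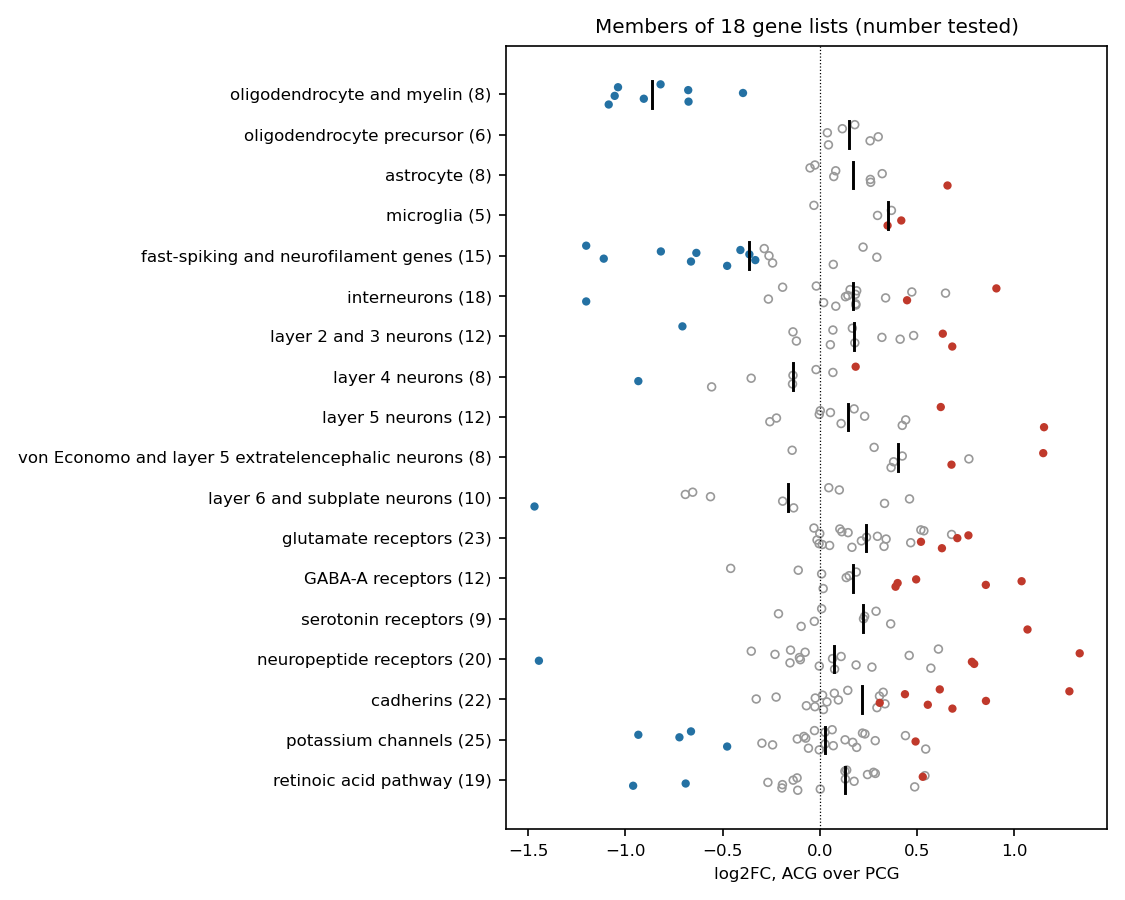
Log2FC of ACG over PCG for each tested member of 18 gene lists, filled where the FDR is under 0.05 (red higher, blue lower in ACG), open otherwise, with the list's median as a bar. The oligodendrocyte and myelin list (median -0.86) and the fast-spiking and neurofilament list (-0.36) lie to the left, and the GABA-A receptor, glutamate receptor and cadherin lists hold called members on the right only.

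The calls on the lists were read with each animal left out. Of 85 distinct list members called, 54 kept their call in each of these fits, 30 lost it in at least 1, and *SSTR5* fell under the filter, and so was not tested, without Rhesus 3 or Rhesus 4. The losses numbered 28 without Rhesus 6, 23 without Rhesus 7, 23 without Rhesus 8, 15 without Rhesus 11, 12 without Rhesus 2, 11 without Rhesus 3, 10 without Rhesus 4 and 5 without Rhesus 10. Without Rhesus 4 they were *BCL11A*, *COBL*, *CSF1R*, *ETV4*, *GABRA4*, *GABRB1*, *GFAP*, *GRIN2B*, *NRXN2* and *PDE1A*. The other 20 were *CDH11*, *CHRNA2*, *CNP*, *EFNA1*, *GABRA2*, *KCNG1*, *KCNH4*, *KCNH8*, *KCNS1*, *NEFM*, *NOS1*, *NPAS4*, *NTNG1*, *P2RY12*, *PDYN*, *SCN1A*, *SEMA3D*, *SSTR4*, *SYT2* and *UGT8*. The highest FDR of a lost call was 0.147, that of *COBL*.

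The difference between ACG and PCG was next compared between the 4 young and 4 mid-aged animals and between the 4 males and 4 females. EdgeR called 0 of 14513 genes for either (0% of the genes tested), while 1414 genes had an unadjusted p under 0.05 for age stage and 1221 for sex, and DESeq2 called 0 as well. Among the 24 named genes the lowest p for sex was that of *HGF*: the mean log2 ratio of ACG over PCG was 1.04 in females and 2.19 in males (unadjusted p 7.61e-05, edgeR FDR 0.593), named after its value was seen.

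The distance of the pair over all genes was set beside that of other cortical pairs. The Euclidean distance between the ACG and PCG samples of an animal, over 22737 genes, was 45.2 ± 5.54 (mean ± SD, n = 8), and the median over the 464 other pairs of cortical sub-regions was 49.9 ± 4.86. The pair was closer than the median pair in 6 of 8 animals, with a mean difference of -4.69, and the exact sign-flip permutation test gave a two-sided p of 0.0703, where 0.00781 is the smallest possible with 8 animals. The difference did not pass the threshold. By mean distance the pair ranked 101 of 465 from the closest. Over all 8 animals PCG was on average the nearest sub-region to ACG and ACG the nearest to PCG, but in single animals this held in 2 and 1 of 8. The posterior superior occipital gyrus was the farthest from both, with mean distances of 79.9 from ACG and 70.5 from PCG. Without Rhesus 4, whose ACG and PCG samples stood apart together, the pair ranked 113 of 465, and PCG was the fifth in distance from ACG (44.1 ± 4.88, SD over animals), behind the insula (41.6 ± 5.14), the anterior superior frontal gyrus, the TPG and the hippocampal or parahippocampal gyrus. PCG was then nearest to the hippocampal or parahippocampal gyrus (40.2 ± 5.62).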

How the data were processed

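Counts per gene of 16 Ribo-zero RNA-seq samples, ACG and PCG of 8 animals, were compared, and the 248 samples of 31 cortical sub-regions gave the cortical context. The authors removed ribosomal RNA, made directional libraries, trimmed reads with Trim Galore 0.4.4, mapped them to Mmul 8.0.1 with HISAT2 2.0.5 and counted them on Ensembl genes with HTSeq 0.6.1, and the deposited values are whole-number counts without normalization. The strand option of the counting is not given in the sources used here, so that overlapping and near-identical genes are uncertain. Symbols matched 17572 of 30807 identifiers and 485 of 569 list members, and 2340 identifiers shared a symbol.

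Genes were tested with edgeR 4.0.16 in R 4.3.3 (TMM, filterByExpr, quasi-likelihood F test, animal as block, Benjamini-Hochberg over all genes tested). The SE is the absolute log2FC divided by the square root of F. DESeq2 1.42.0 gave variance-stabilized values of the genes the study counts as detected (more than 1 read in 3 or more samples), and summaries used Python 3.11.15. The pairing comes from the animal: deviations from the group means of its 2 samples correlated with r from 0.346 to 0.898. In 6 animals the ACG sample correlated best with its own PCG sample. In Rhesus 2 (0.346 against 0.386) and Rhesus 10 (0.454 against 0.481) it correlated better with that of another animal. Depth of 8312733 to 13483962 counts leaves genes near 1 CPM imprecise. On simulated data of 14513 genes, 93 of 100 genes changed 2-fold and 100 of 100 changed 4-fold were recovered, with 10 other calls. The changed genes were drawn from those above about 1 CPM, and the counts of each gene were drawn independently of other genes. Smaller changes, such as the median absolute log2FC of 0.48 of the called genes, were not simulated.

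Members and lists were chosen with earlier results of these data known. Named are, per direction, the 12 genes with a symbol, at least 1 CPM in the higher group, an FDR under 0.05, 1 direction in 8 animals and the largest absolute log2FC, and per list up to 4 called members with the largest absolute log2FC, or the member with the smallest p. Where a list has more calls the others are given by name only or with their log2FC, as are members such as *RORB* and *PTPRC* picked after their values were seen. Alternatives were DESeq2, its size factors, no filter, the study's detection rule, no block, 1 fit over the cortex, an RNA integrity covariate (the study's medTIN), each animal left out and other distances. The ATAC-seq samples and the assembled transcripts were not used here. A few genes that the rule for named genes takes are not reported here, and they remain in the counts and medians.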

Additional observations from a re-analysis of the deposited data

Results flagged for a closer look

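For the 24 named genes, the summed levels of 14 cell type lists and the distance, 77 groups of 8 values were searched. The search was for 1 sample far from the others, and 7 were found. Chance gives about 1 in 20 groups of independent, normally distributed values. The groups share samples and their distributions were not examined, so that this rate need not hold here. In the PCG sample of Rhesus 10, *FSHB* was at 2.97 CPM, against 0.173 to 1.49 CPM in the other 7 animals. *CA12* was at 16.2 CPM in the same sample, against 3.12 to 8.30 CPM. The oligodendrocyte and myelin list summed to 3613 CPM in the PCG sample of Rhesus 7, against 1555 to 2002 CPM in the others. The remaining 4 belonged to Rhesus 4, whose samples stood apart as a pair. Its PCG sample had an astrocyte sum of 1729 CPM, against 3093 to 3915 CPM. Its ACG sample had an excitatory neuron sum of 4593 CPM, against 3253 to 3762 CPM. The striatal medium spiny neuron list summed to 426 CPM in its ACG sample, against 290.7 to 349.9 CPM, and to 428 CPM in its PCG sample, against 307 to 350.5 CPM. The part of these samples in the differences between ACG and PCG was measured only by leaving the animal out.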

How the results depend on the processing

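Depth limits the genes near 1 CPM, and 8 animals limit the interactions. Of 24 named genes, 23 kept direction and call in each fit that tested them (3 fell under the filter in 1 or 2 fits). The fits without the replicate block and with the oligodendrocyte covariate are left out of this count. *KRT19* lost its call without Rhesus 6, and 0 reversed. The rule for named genes asked for 1 direction in all 8 animals, which in large part set this in advance. Without the replicate block, which drops the pairing by animal, 59 genes were called (37 higher, 22 lower) and 15 of the named genes kept their call, and for PCG against the other cortical sub-regions the count without the replicate block was 1674. With the oligodendrocyte covariate, added after the data were seen, 0 genes were called, 0 higher and 0 lower. With an absolute log2FC above 1 in addition, 104 were called. With each animal left out the count ran from 476 to 1079, with 282 to 590 higher and 194 to 510 lower, lowest without Rhesus 6. Without Rhesus 4, added after the data were seen, 1638 genes were called for PCG against the other sub-regions. With no filter on low counts the interaction with age stage gave 144 calls and that with sex 44, where the filtered tables gave 0; the cause was not tested. The share of higher genes among the calls was 56.1% and ran from 50.9% in the fit over the cortex to 60.9% without Rhesus 11, and was 62.7% without the replicate block. For the distance between ACG and PCG, the mean difference of -4.69 passed the threshold with the 1000 most variable genes (-4.62, exact p 0.0156) and without Rhesus 2 or Rhesus 10, and with each animal left out it ran from -6.19 to -3.70 with exact p from 0.0313 to 0.141. The block changed no direction among the named genes, which their choice by 1 direction in all 8 animals in large part sets.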
